A study of Mus musculus with 8 samples.

Results

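Lamins and high mobility group (HMG) proteins organise chromatin in the nucleus, and their levels in mesonephric tubules were read here probe by probe from single-colour Agilent arrays. The members were the lamin genes Lmna, Lmnb1 and Lmnb2, the lamin B receptor gene Lbr, the HMGA genes Hmga1 and Hmga2 and the HMGB genes Hmgb1, Hmgb2 and Hmgb3. A probe was taken where its transcript accession belonged to 1 of these 9 genes in RefSeq, which gave 18 of 55681 probes, or 9 of 19752 named genes on the array. All 18 probes were well above background on all 8 arrays, so none was lost to a filter on dim signal.

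The samples were tubules of the mesonephros, a transient embryonic kidney, cut by microdissection from toluidine blue stained frozen sections of mouse embryos. One group was wild type (5 arrays, strain C57/BL6) and the other carried the knockout label p21KO -/- (3 arrays, same strain), p21 being the cyclin-dependent kinase inhibitor encoded by Cdkn1a. The labels give no embryonic stage, no pooling and no word on whether samples came from separate embryos, and each p-value therefore reflects only how far these samples scatter, which may be technical. The design describes the wild-type tubules as senescent and the p21-null tubules as not senescent. Cdkn1a itself differed by −0.19 (log2, 95% interval −1.42 to 1.04) and −0.24 (95% interval −1.05 to 0.56) on its 2 probes (limma adjusted p = 0.953 and 0.892). Both probes were above background on all 5 wild-type arrays and all 3 labelled p21KO. Where the probes lie with respect to the deletion was not analysed here, so this gene does not check the label. The second group is therefore called labelled p21KO, and every direction rests on that label.

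Lamins are intermediate filament proteins that line the inner face of the nuclear envelope. Lmna encodes the A-type lamins A and C, which are splice forms, whereas Lmnb1 and Lmnb2 encode B-type lamins that stay anchored to the membrane by a farnesyl group. The lamin B receptor spans the inner nuclear membrane, binds B-type lamins and the heterochromatin protein HP1, and also has sterol reductase activity. HMGA proteins bind AT-rich DNA through AT hooks, and HMGB proteins bend DNA through HMG boxes; HMGB1 also acts outside the cell as an alarm signal. In cultured senescent cells lamin B1 and HMGB2 are known to be lost, HMGB1 leaves the nucleus and HMGA proteins build up in condensed chromatin foci.

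Levels are log2 signals scaled to the array's own 75th percentile, which is set to 0, so levels of different probes are not set against each other. Differences are means of arrays labelled p21KO minus wild-type means. In bulk tissue fewer cells of a type and less RNA per cell cannot be told apart. Of 50076 probes tested with limma, 0 had an adjusted p under 0.05 (0% called), the lowest adjusted p being 0.17. With an unadjusted p under 0.05 stood 4892 probes (9.77%), 5.92% of all probes higher and 3.85% lower. That count was 2601 without p21KO replicate 3 and 9650 with array weights. Past the adjusted threshold were 3 probes with normexp background correction and 43 with array weights. The array weights gave p21KO replicate 3 a weight of 4.15 and each other array 0.52 to 1.42, so that setting leans on 1 array. Among the 18 member probes 0 passed the adjusted threshold and 2 had an unadjusted p under 0.05, or 11.1%, a share close to that of all probes. Both were Lbr probes, and they were also the only 2 member probes whose groups did not overlap, against 6.8% of probes measured on all 8 arrays. The other 16 member probes overlapped between groups, 7 with a positive and 9 with a negative difference, and the median difference of all 18 was 0.051 against −0.026 over all probes tested.

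**Figure D1:**
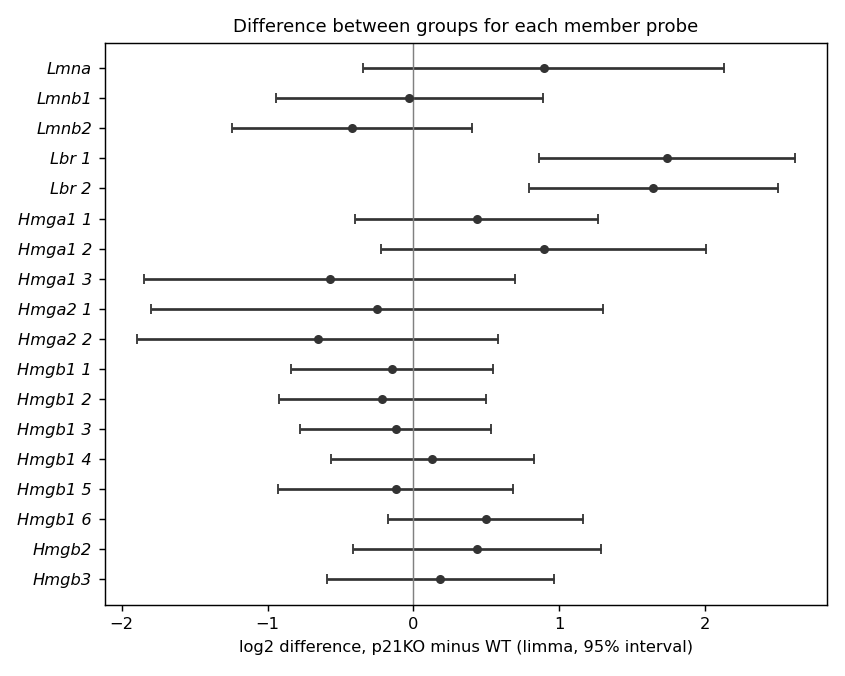
Log2 difference between groups for each of the 18 member probes (points, labelled p21KO minus wild type) with 95% limma intervals; probes of 1 gene are numbered from the highest mean signal. The intervals of both Lbr probes lie above 0, from 0.79 upward, and those of the other 16 probes include 0.

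Lbr was the member with the largest difference. On probe 1 the log2 signal was 1.35, 0.85, 1.22, 2.0 and 1.9 on the wild-type arrays 1 to 5, against 2.75, 3.08 and 3.79 on arrays 1 to 3 labelled p21KO. On probe 2 it was 0.47, 0.44, 0.15, −0.24 and 1.02 on the wild-type arrays 1 to 5, against 2.06, 1.5 and 2.49 on arrays 1 to 3 labelled p21KO. On both probes each array labelled p21KO lay above every wild-type array, which held for 4.37% of probes measured on all 8 arrays. Group means on probe 1 were 1.47 ± 0.48 (SD, n = 5) and 3.21 ± 0.53 (SD, n = 3). They differed by 1.74 (standard error 0.39), which is 3.34-fold (95% interval 1.82 to 6.13). Probe 2 differed by 1.65 (standard error 0.38), which is 3.13-fold. Unadjusted limma p-values were 0.00151 and 0.00182, and the adjusted p of each was 0.305, so the gene did not pass over all probes. Over all 56 ways to divide the arrays, the exact permutation test (two-sided) gave p = 0.0179 for each probe, the smallest this design allows. Only groups that do not overlap can reach this value, so it restates that separation. The divisions also took no account of slides. Over all alternatives the adjusted p of the 2 probes ran from 0.0526 to 0.95, the lowest with array weights and the highest without p21KO replicate 3.

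The arrays lay on 3 slides, each holding both groups, and the Lbr difference was present on each. Slide 1 held wild-type replicates 1, 2 and 3 and p21KO replicate 1, slide 2 wild-type replicate 4 and p21KO replicate 2, and slide 3 wild-type replicate 5 and p21KO replicate 3. Within slides 1, 2 and 3 the differences were 1.61, 1.08 and 1.88 on probe 1 and 1.7, 1.74 and 1.46 on probe 2. With slide as a block they were 1.54 and 1.65.

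Markers of blood and liver cells were also mostly higher in the group labelled p21KO, but not on every array as Lbr was. For liver markers the mean log2 signal of wild-type replicate 5, at 2.92, was above that of p21KO replicate 2, at 2.77. The same held for macrophage and leukocyte markers, at 0.24 against 0.093. Of 21 tested erythroid markers 18 had a positive difference and 15 a positive difference at an unadjusted limma p under 0.05; among 18178 named genes with 1 probe each 49.4% had a positive difference and 12.4% an unadjusted p under 0.05 (7.73% higher, 4.63% lower). Their summed signal, in multiples of the 75th percentile, was 268 to 526 in wild type and 440 to 610 in the arrays labelled p21KO. For 16 liver markers, all with positive differences and 15 at an unadjusted p under 0.05, the summed signal was 17.1 to 194 and 158 to 354. For 17 tested macrophage and leukocyte markers, 14 of them positive and 11 at an unadjusted p under 0.05, it was 22.7 to 38 and 36.6 to 57.8. All tested markers of these 3 lists were above background on all 8 arrays, and Ahsp and Cd68 were not tested. These lists and those below were chosen with earlier results of these data known, so their counts are descriptive only. The part of these cells in the Lbr difference was not tested.

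**Figure D2:**
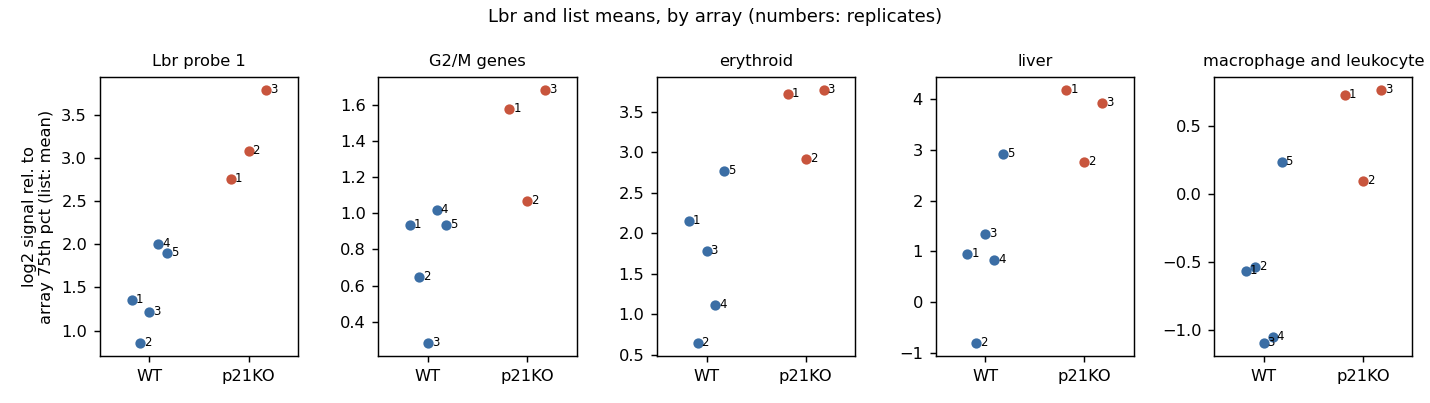
Log2 signal of Lbr probe 1 and mean log2 signal of the G2/M, erythroid, liver and macrophage and leukocyte lists on each array (points, numbered by replicate; blue wild type, red labelled p21KO). For Lbr the lowest array labelled p21KO, at 2.75, is well above the highest wild-type array, at 2.0. Wild-type replicate 5 is the highest wild-type array for erythroid (2.77), liver (2.92) and macrophage (0.24) markers. It lies above p21KO replicate 2 for liver (2.77) and macrophage (0.093) markers.

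Genes of the cell cycle were mostly higher on these arrays as well. Of 42 G2/M genes other than members 41 had a positive difference and 9 an unadjusted p under 0.05. Their median difference was 0.69 against −0.010 over named genes, and 0 passed the adjusted threshold. Among named genes 49.4% had a positive difference and 7.73% were higher at an unadjusted limma p under 0.05. Dlgap5, a mitotic spindle protein, differed by 1.09, Mki67, the proliferation marker Ki-67, by 1.12, Ccna2, encoding cyclin A2, by 1.21 and the kinetochore gene Nuf2 by 1.28. Of 42 S-phase genes 40 had a positive difference and 18 an unadjusted p under 0.05, with a median of 0.63; the helicase loader gene Cdc6 differed by 1.62, the helicase gene Blm by 1.37, Slbp, which binds histone mRNA, by 1.29 and Cdc45, part of the replicative helicase, by 1.2. Their part in the Lbr difference was not tested. The named genes outside the set whose pattern over the 8 arrays was nearest to that of Lbr, by the root mean square of centred log2 values, were Ptpre (0.24), Brpf3 (0.281) and E2f4 (0.285), where Lbr itself varied with an SD of 1.01.

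The upstream windows of Lbr, Hmgb2 and Hmgb3 are printed because these members hold 2 short motifs known from promoters of cell-cycle genes. Each sequence is the 250 bases before the annotated start, 5′ to 3′ on the gene's strand, from RefSeq on build GRCm38.p6. Capitals mark CCAAT, the box bound by NF-Y, and TTTGAA, the cell-cycle homology region element, on either strand, where the reverse strand reads ATTGG and TTCAAA.
Lbr chr1:181842402-181842651 (- strand): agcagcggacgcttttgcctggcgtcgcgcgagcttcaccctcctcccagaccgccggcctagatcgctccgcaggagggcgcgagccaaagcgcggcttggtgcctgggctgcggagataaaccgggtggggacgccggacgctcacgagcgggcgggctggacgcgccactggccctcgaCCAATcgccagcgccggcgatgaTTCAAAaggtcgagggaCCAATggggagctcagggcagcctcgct
Hmgb2 chr8:57511593-57511842 (+ strand): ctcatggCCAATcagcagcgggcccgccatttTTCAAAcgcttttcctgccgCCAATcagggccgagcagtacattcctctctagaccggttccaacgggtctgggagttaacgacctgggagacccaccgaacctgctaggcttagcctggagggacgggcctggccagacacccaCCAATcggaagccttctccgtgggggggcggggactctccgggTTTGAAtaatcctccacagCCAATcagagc
Hmgb3 chrX:71555667-71555916 (+ strand): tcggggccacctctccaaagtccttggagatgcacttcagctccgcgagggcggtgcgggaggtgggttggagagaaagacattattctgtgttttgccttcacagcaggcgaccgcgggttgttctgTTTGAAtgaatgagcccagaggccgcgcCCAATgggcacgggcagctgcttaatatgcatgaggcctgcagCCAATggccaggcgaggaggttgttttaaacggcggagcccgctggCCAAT
CCAAT occurs 2 times in the Lbr window, 4 times in that of Hmgb2 and 3 times in that of Hmgb3, and TTTGAA 1, 2 and 1 times; the motifs do not overlap in these windows. The first Hmgb1 window held 3 CCAAT and 0 TTTGAA, and the second held neither. Neither motif was present in the windows of Lmnb2, Hmga1 and Hmga2, and 1 of 2 Lmna windows held 1 CCAAT. Over 32851 annotated windows of the same length, 33.8% held CCAAT, 16% held TTTGAA and 1.53% held at least 2 of the first and 1 of the second. The E2F-like motif TTTNNCGC, present in 4.28% of windows, had no match in the windows of the 8 members scanned; Lmnb1 was not scanned. These counts describe letters and not bound sites, and of these 3 genes Hmgb2 and Hmgb3 overlapped between the groups.

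Among the lamins, no difference was larger than the spread between arrays. Lmna was 1.72, 2.84, 0.56, 1.53 and 2.6 on the wild-type arrays 1 to 5, against 2.73, 2.17 and 3.33 on arrays 1 to 3 labelled p21KO. Wild-type replicate 3 was low, and replicates 2 and 5 lay within the range of the arrays labelled p21KO. Group means of Lmna were 1.85 ± 0.91 (SD, n = 5) and 2.74 ± 0.58 (SD, n = 3); the difference was 0.89 (95% interval −0.35 to 2.13, limma adjusted p = 0.665), an interval that reaches from 0.787-fold to 4.38-fold. Within slides 1, 2 and 3 the difference was 1.02, 0.64 and 0.73. Without wild-type replicate 3 it was 0.57. This single probe carries the accession of 1 transcript, and which of the lamin A and lamin C messages it reads was not analysed here.

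Lmnb2 was 1.54, 1.62, 1.14, 0.68 and 0.83 on the wild-type arrays 1 to 5, against 1.32, 0.43 and 0.47 on arrays 1 to 3 labelled p21KO. The groups overlapped, p21KO replicate 1 lying among the higher wild-type arrays. The difference was −0.42 (95% interval −1.25 to 0.40, limma adjusted p = 0.785), with the same sign within slides 1, 2 and 3 (−0.12, −0.25 and −0.36). It was −0.71 without p21KO replicate 1 and −0.27 without p21KO replicate 2. Genes nearest in pattern were Lmf1 (0.181), Col4a1 (0.196) and Chst4 (0.197).

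Lmnb1, whose loss marks senescent cells in culture, had nearly the same signal on 4 of 5 wild-type arrays and stood apart on the fifth. The log2 signal was 0.083, 0.11, 0.092, 0.037 and −1.38 on the wild-type arrays 1 to 5, against −0.25, −0.30 and −0.17 on arrays 1 to 3 labelled p21KO. Wild-type replicate 5 was 2.75-fold below the mean of wild-type replicates 1 to 4, whose SD was 0.032. Its probe is printed 10 times on each array; the spots share 1 labelling and hybridisation, so their spread covers spot noise only. On wild-type replicate 5 the 10 spots ran from −1.57 to −1.22, with an SD between spots of 0.0994. On the other 7 arrays no spot was below −0.57, and the SD between spots was 0.0449 to 0.14. Spots marked as outliers by the scanner software were left out, which left 9 or 10 per array.

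**Figure D3:**
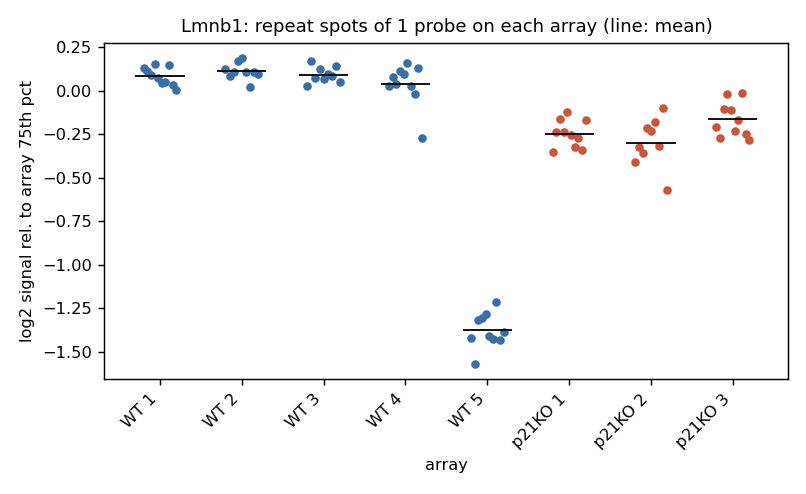
Log2 signal of the 9 or 10 usable spots of the Lmnb1 probe on each array (points; blue wild type, red labelled p21KO), with the array mean as a line. Spots of wild-type replicate 5 lie between −1.57 and −1.22, below every spot of the other arrays.

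Between the groups, Lmnb1 differed by −0.027 (95% interval −0.94 to 0.89, limma adjusted p = 0.991). The sign of this small difference turned under several alternatives, quantile and median scaling among them. Without wild-type replicate 5 all 3 arrays labelled p21KO lay below the remaining wild-type arrays, as 3.79% of all probes then did. The same then held for Hmgb1 probe 2. Without that array the Lmnb1 difference was −0.32 (limma adjusted p = 0.738). Within slides 1 and 2 it was −0.34 and −0.34, and within slide 3, which holds wild-type replicate 5, 1.21. Genes nearest in pattern to Lmnb1 were Rab22a (0.145), Cdk10 (0.151) and Rabl3 (0.166).

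Most HMGB probes were also low on wild-type replicate 5. Hmgb2 was 1.48, 0.63, 0.92, 0.70 and 0.15 on the wild-type arrays 1 to 5, against 1.34, 0.70 and 1.6 on arrays 1 to 3 labelled p21KO. It was lowest on wild-type replicate 5 and highest on p21KO replicate 3, and the groups overlapped. The difference was 0.44 (95% interval −0.42 to 1.29, limma adjusted p = 0.786); it was 0.25 without p21KO replicate 3 and 0.69 without p21KO replicate 2. Hmgb3, on the X chromosome, was 4.77, 4.14, 5.01, 4.99 and 4.0 on the wild-type arrays 1 to 5, against 4.85, 4.63 and 4.83 on arrays 1 to 3 labelled p21KO. Wild-type replicates 2 and 5 were low, and the arrays labelled p21KO lay within the wild-type range. The difference was 0.19 (95% interval −0.59 to 0.96, limma adjusted p = 0.919), and on leaving out single arrays it ran from 0.040 without wild-type replicate 5 to 0.29 without wild-type replicate 3. The gene nearest in pattern was Cetn3, with a root mean square of 0.0658.

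Hmgb1 was read by 6 probes, all carrying the same accession. On probe 1 the signal was 2.96, 2.69, 2.88, 2.88 and 2.18 on the wild-type arrays 1 to 5, against 2.56, 2.32 and 2.84 on arrays 1 to 3 labelled p21KO. The array labelled wild-type replicate 5 was lowest, and the remaining wild-type arrays lay between 2.69 and 2.96. Differences between groups on probes 1 to 6 were −0.15, −0.21, −0.12, 0.13, −0.12 and 0.50, with adjusted limma p-values from 0.655 to 0.953. The probes did not share a sign: 4 were negative and 2 positive. Their 95% intervals lay within the span from −0.93 to 1.17. Centred on their means, pairs of these probes differed by a root mean square of 0.0758 to 0.524. RefSeq lists 13 named pseudogenes of Hmgb1, so signal from near-identical copies may be included and these values are uncertain in that respect.

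Of the 8 HMGB probes, 6 of which read Hmgb1, 7 had their lowest wild-type value on replicate 5 and all 8 were below the mean of wild-type replicates 1 to 4. Over all 49667 probes measured on 8 arrays, 13.4% had their lowest wild-type value there and 40.8% were below that mean. Of 49667 probes 2.46% were as far below it as Lmnb1. Hmgb2 was 1.72-fold, Hmgb3 1.66-fold and Hmgb1 1.07-fold to 2.08-fold lower on replicate 5 than on replicates 1 to 4. The HMGA probes were not low on this array. All 5 were above the mean of replicates 1 to 4, as most probes were, since only 40.8% were below it. They were above by 0.0050 to 1.27 for Hmga1 and by 0.78 and 0.84 for Hmga2, where the median over all probes was 0.17. Hmga1 probe 1, at 0.0050, lay under that median. This array had the highest wild-type mean for 6 of 8 marker lists: liver, erythroid, macrophage and leukocyte, stroma and smooth muscle (2.07, the other wild-type arrays at most 1.8), endothelial (0.31, the others at most 0.13) and gonad and germ cell (−2.31, the others at most −2.68). Its G2/M mean of 0.94 lay within the wild-type range of 0.28 to 1.02. It is 1 array, chosen here for its values, and the part of other cell types in them was not tested.

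**Figure D4:**
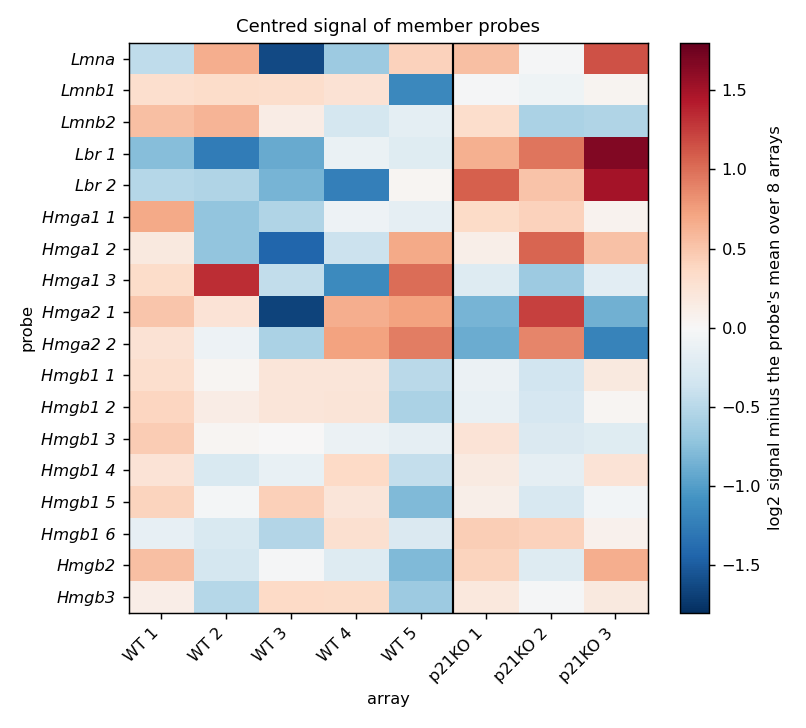
Log2 signal of each member probe minus its mean over 8 arrays (colour, red above and blue below) for 5 wild-type arrays, left of the line, and 3 labelled p21KO, right of it. Lmnb1 and 7 of 8 HMGB probes are lowest of the wild type on replicate 5, and both Lbr probes are red on all 3 arrays labelled p21KO.

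No HMGA difference stood clear of the spread between arrays. Hmga2, a fetal growth gene that is shut down in most adult tissues, was 3.47, 3.21, 1.3, 3.61 and 3.68 on the wild-type arrays 1 to 5, against 2.12, 4.2 and 2.1 on arrays 1 to 3 labelled p21KO on probe 1. On probe 2 it was 2.3, 1.95, 1.48, 2.77 and 2.96 on the wild-type arrays 1 to 5, against 1.15, 2.92 and 0.84 on arrays 1 to 3 labelled p21KO. On both probes wild-type replicate 3 was the lowest wild-type array and p21KO replicate 2 stood far above p21KO replicates 1 and 3. The differences were −0.25 (95% interval −1.8 to 1.3, limma adjusted p = 0.951) on probe 1 and −0.66 (95% interval −1.89 to 0.58, limma adjusted p = 0.777) on probe 2. Within slides 1, 2 and 3 they were −0.54, 0.59 and −1.58 on probe 1 and −0.76, 0.15 and −2.13 on probe 2, so the sign was not shared by slides. Without p21KO replicate 2 the probe 2 difference was −1.3 (limma adjusted p = 0.369), without p21KO replicate 1 −0.41 and without p21KO replicate 3 −0.26. It was −1.1 with array weights. Genes nearest in pattern to Hmga2 were Wls (0.261), Heph (0.284) and Sema3a (0.291), where Hmga2 varied with an SD of 0.999.

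Hmga2 mRNA is a well known target of let-7 microRNAs, whose maturation is blocked by the Lin28 proteins, and the Igf2bp RNA-binding proteins belong to the same fetal programme. The seed of 2 family members (bases 2 to 8, in capitals, from RefSeq on GRCm38.p6) is shown because it is the part that pairs with the Hmga2 message; the microRNAs themselves were not measured here.
mmu-let-7a-5p: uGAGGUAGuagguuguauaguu
mmu-miR-98-5p: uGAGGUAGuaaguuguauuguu
Lin28b was −0.50, −3.5, −2.27, −1.0 and −0.23 on the wild-type arrays 1 to 5, against 1.06, 0.37 and 0.97 on arrays 1 to 3 labelled p21KO. Every array labelled p21KO was above every wild-type array, as held for 4.37% of probes measured on all 8 arrays. The Lin28b difference was 2.29 (standard error 0.72, limma adjusted p = 0.369, unadjusted p = 0.0112). Lin28a differed by −0.77 and Igf2bp3 by 0.33. Igf2bp2, described as a target of Hmga2, was 1.64, 1.95, 0.17, 1.14 and 1.52 on the wild-type arrays 1 to 5, against −0.078, 1.51 and 0.12 on arrays 1 to 3 labelled p21KO. It was low on wild-type replicate 3 and p21KO replicates 1 and 3, the arrays on which Hmga2 probe 1 was lowest. Whether Lin28b had a part in the Hmga2 values, or Hmga2 in the Igf2bp2 values, was not tested. Of these 5 genes 1 had an unadjusted limma p under 0.05, against 12.4% of named genes, and 0 passed the adjusted threshold.

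Hmga1, expressed in proliferating embryonic cells, was read by 3 probes that disagreed. Hmga1 and Cdkn1a both lie on chromosome 17, and an effect of this shared location was not tested. Probe 1 was 4.07, 2.67, 2.83, 3.29 and 3.22 on the wild-type arrays 1 to 5, against 3.72, 3.79 and 3.44 on arrays 1 to 3 labelled p21KO. Its arrays labelled p21KO lay inside the wild-type range, wild-type replicate 1 being the highest of all. The differences were 0.44 (95% interval −0.40 to 1.27, limma adjusted p = 0.781) on probe 1, 0.89 (95% interval −0.22 to 2.01, limma adjusted p = 0.625) on probe 2 and −0.57 (95% interval −1.85 to 0.70, limma adjusted p = 0.816) on probe 3. The probe 3 difference was −0.91 when wild-type replicate 4 was left out and −0.30 when replicate 2 was. Each probe carries the accession of a different Hmga1 transcript, and pairs of them differed by a root mean square of 0.561 to 1.08 after centring. RefSeq also lists a protein-coding copy, Hmga1b, on chromosome 11, so signal from both copies may be mixed.

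**Figure D5:**
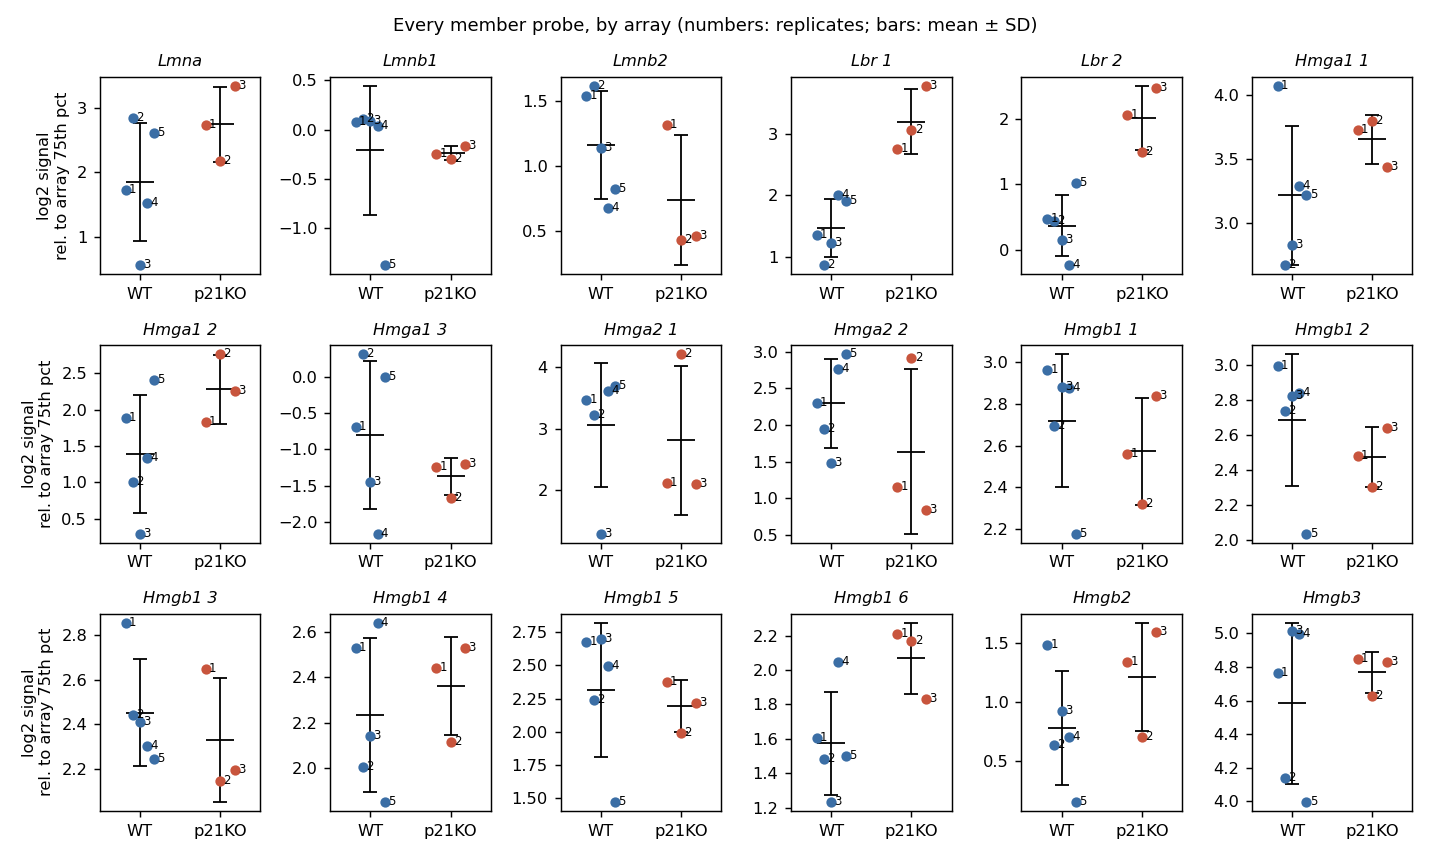
Scaled log2 signal (0 is the array's 75th percentile) of every member probe (points, numbered by replicate; blue wild type, red labelled p21KO), with mean ± SD in black. The groups are apart on both Lbr probes and overlap on the other 16.

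Among partners of the lamina and other chromatin proteins 0 genes passed the adjusted threshold. Of 16 nuclear envelope and lamina partners 9 were positive and 1, Syne2, had an unadjusted p under 0.05; the list median was 0.091. Syne2, encoding nesprin-2 of the complex that links nucleus and cytoskeleton, differed by −1.5 (standard error 0.60; limma adjusted p = 0.468). Tor1aip2, encoding a membrane activator of torsin ATPases, differed by 0.86, the nesprin gene Syne3 by 1.51 and Rb1, the retinoblastoma gene, by 0.68. The 5 prelamin processing enzymes had differences between −0.085 for the methyltransferase gene Icmt and 0.36 for the farnesyltransferase subunit gene Fntb, and 0 had an unadjusted p under 0.05. The protease gene Zmpste24, which cleaves prelamin A, differed by 0.17.

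The 4 HMGN genes, whose proteins bind nucleosomes, had a median difference of −0.44, with Hmgn1 at −0.47, Hmgn2 at −0.42, Hmgn3 at −0.55 and Hmgn5 at 0.33, and 0 at an unadjusted p under 0.05. Of 15 other HMG-box genes 5 were positive and 0 had an unadjusted p under 0.05, the median being −0.093. Tox3 differed by −1.58, Tox, known from T-cell development, by −0.88 and the mitochondrial DNA packaging gene Tfam by 0.62. Of 20 heterochromatin genes 10 were positive, and 1, the macroH2A2 histone gene, had an unadjusted p under 0.05, at −1.35. Ehmt2, a histone H3 lysine methyltransferase gene, differed by −0.60 with the arrays labelled p21KO all below the wild type, as 2.43% of probes were. Suv39h1, another such enzyme, differed by 0.72. Cabin1, of the same list, differed by 0.61 with the arrays labelled p21KO all above the wild type, as 4.37% of probes were. Among 5 receptors and partners of extracellular HMGB1 0 had an unadjusted p under 0.05. The receptor gene Tlr4 exceeded background clearly in 3 of 5 wild-type samples and 2 of 3 labelled p21KO, so no difference is given for it. The chemokine gene Cxcl12 differed by 0.84, its receptor gene Cxcr4 by −0.63 and Tlr2 by 0.40.

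The tissue label was checked against 24 markers of the mesonephric duct and tubule, of which 19 were lower in the arrays labelled p21KO and 1 had an unadjusted p under 0.05. Their summed signal was 19.5 to 57 in wild type and 16.2 to 29.5 in the arrays labelled p21KO. The median difference of the list was −0.67. Lhx1 and Ret were named after their values were seen. Lhx1, a nephric transcription factor gene, was 1 of the 5 list markers with a positive difference. It averaged 1.88 ± 0.59 (SD, n = 5) and 1.97 ± 0.35 (SD, n = 3). Ret, the Gdnf receptor gene of the duct, was above background on 4 of 5 wild-type arrays and on 0 of 3 labelled p21KO. Neural markers were lower for 16 of 16 genes, 5 of them at an unadjusted p under 0.05 and 0 past the adjusted threshold, with a summed signal of 19.6 to 82.1 against 12.2 to 13.8. In the list for stroma and smooth muscle 14 of 18 genes were lower, 1 at an unadjusted p under 0.05, with a median difference of −0.63 and a summed signal of 82.6 to 217 against 65.9 to 177. Of 12 endothelial markers 7 were higher and 0 had an unadjusted p under 0.05, and of 11 tested gonad and germ cell markers 7 were higher, 1 higher and 2 lower at an unadjusted p under 0.05. Between 82.4% and 89.3% of the probes on an array exceeded background clearly and 0 spots were saturated. The mean local background was 38 to 44.1 for the 4 arrays of slide 1; the other slides had 91.3 to 135.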

How the data were processed

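Total RNA of each sample was hybridised to 1 single-colour (Cy3) Agilent array. Per the file headers, Agilent Feature Extraction 10.7.3.1 made the deposited scanner files, whose linear intensities (processed, and median for spot and local background) carry no normalization between arrays. The authors' deposited series table is on a log2 scale; limma is named in the submitters' processing notes, and how it was scaled is not given there. Flags for background, saturation and outliers are those of the deposited files, and slides were read from the deposited files' slide identifiers.

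Processed intensities were log2-transformed and each array's 75th percentile over non-control spots was subtracted. Outlier spots were dropped and repeat spots of a probe averaged. Accessions were matched without versions to RefSeq (assembly GRCm38.p6), which named 26056 of 55681 probes. Probes above background on at least 3 of 8 arrays went into a limma 3.58.1 fit (R 4.3.3) of 5 against 3 arrays without covariates; p-values were adjusted by Benjamini-Hochberg across 50076 probes, threshold 0.05. For gene lists the probe with the highest mean stood for a gene. For single values an exact permutation test (two-sided) was used. The fit was tested on simulated data. Named genes were the members, Cdkn1a, up to 4 genes of smallest p in each list and the 3 genes nearest each member in pattern; Lhx1 and Ret were named after their values were seen. The members and lists were chosen with earlier results of these data known. Alternatives were other scalings, normexp correction on the median intensities (the mean spot signal was not used here), other filters, slide or replicate number as a block, 1 probe per gene, moderation, array weights, the series table and leaving out each array.

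Replicate numbers are shared between the groups, but same-numbered arrays deviated from their group means with correlations of 0.0719, −0.073 and −0.075, so the numbers were not taken to pair samples. For arrays of different groups on the same slide these correlations were 0.0051 to 0.217, against −0.115 to 0.0934 on different slides. The highest was that of wild-type replicate 5 with p21KO replicate 3, both on slide 3. Pairs of arrays correlated between 0.849 and 0.945 over probes.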

Additional observations from a re-analysis of the deposited data

Results flagged for a closer look

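The group of 5 wild-type arrays held 1 value far from the others on 3 of the 18 member probes, by the gap to the nearest array as a share of the group's range against Dixon's 95% critical value of 0.71. Chance alone passes this value in about 5% of groups, and 6.21% of 49667 probes passed it. Lmnb1 was −1.38 on wild-type replicate 5, a gap of 0.949 of the range. Hmga2 probe 1 was 1.3 on wild-type replicate 3, a gap of 0.802 of the range. Hmgb1 probe 2 was 2.04 on wild-type replicate 5, a gap of 0.734 of the range. On Hmga2 probe 2 replicate 3 was also the lowest wild-type array, at 1.48.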

How the results depend on the processing

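With few arrays, the precision of every difference is limited by their number. Both Lbr probes kept a positive difference under every alternative run, from 1.41 to 2.17, without passing the adjusted threshold. The count of member probes at an unadjusted p under 0.05 was 2. It was 3 with array weights and without p21KO replicate 2, where Hmga2 probe 2 was the third. Without wild-type replicate 5 it was also 3, with Hmga1 probe 2 as the third, and it was 2 on leaving out any other single array. With 1 probe per gene it was 1, since only 1 Lbr probe was then tested. The count of probes past the adjusted threshold was 0, but 3 with normexp correction, 43 with array weights and 0 to 1 on leaving out single arrays. The count of all probes at an unadjusted p under 0.05 was 9650 with array weights and 2601 without p21KO replicate 3, against 4892. The array weights gave most weight, 4.15, to p21KO replicate 3. The sign turned for members of small difference, and the cause was not tested: Lmnb1 was 0.00024 with quantile scaling, 0.042 with median scaling, 0.10 with slide as a fixed block, 0.054 with array weights and −0.32 to 0.054 on leaving out single arrays. Hmga2 probe 1 was −0.94 to 0.11 on leaving out single arrays, Hmgb1 probe 4 was −0.054 in the series table and Hmgb1 probe 1 was 0.050 with array weights. With the replicate number as a block 2 member probes had an unadjusted p under 0.05 and 0 probes passed the adjusted threshold, the same counts as without it; Hmga2 probe 1 was then 0.15 and Lmnb1 −0.33, and Hmga2 probe 2 −0.27 against −0.66. Differences of the Hmgb1 probes ran from −0.37 to 0.61 on leaving out single arrays.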
